A study of Mus musculus with 30 samples.

Results

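The dystrophin glycoprotein complex was followed over time in cultures of cells that the labels place in mouse leg muscle, through the probe sets of 8 of its genes: Dmd, Utrn, Dtna, Dag1, Sgca, Sgcb, Sgce and Sspn. Its members were the probe sets of a 2-chip Affymetrix set annotated to exactly 1 of these genes, and there were 26 of them among 45265 on both chips: 4 of Dmd, 3 of Utrn, 7 of Dtna, 4 of Dag1, 1 of Sgca, 3 of Sgcb, 2 of Sgce and 2 of Sspn. The groups were the cultures at 4, 12, 24 and 48 h, each set against the cultures at 0 h, with 3 replicates per hour and 1 array of the A chip and 1 of the B chip for each replicate, 30 arrays in all. The labels give the species, the tissue, the hour and the replicate number. They give no strain, genotype, age, medium or treatment, and no event that starts the clock at 0 h. Whether the replicates were grown separately or came from different animals is not said, so the p-values speak only to the spread of these arrays, part or all of which may be technical.

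In a muscle fibre the complex joins the actin cytoskeleton to the basement membrane. Dystrophin binds actin inside the cell and the tail of beta-dystroglycan at the membrane, alpha-dystroglycan binds laminin outside, and the sarcoglycans and sarcospan form a membrane subcomplex that holds dystroglycan in place, while alpha-dystrobrevin binds dystrophin and carries the syntrophins. Utrophin is the close relative of dystrophin that sits along the membrane of immature muscle and is later concentrated at the nerve contact. Loss of several of these proteins causes muscular dystrophy in people.

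All values are probe set intensities on a linear scale, and a log2 difference is the later hour minus 0 h of log2(intensity + a pseudocount of 29 on A or 54 on B), which understates the change of dim probe sets. Testing was limited to the brighter 60% of each chip, ranked by mean log2 value, and 22 of the 26 members were among these probe sets. Of the 22, 3 (Dmd 1417307_at, Dmd 1443315_at and Sspn 1417645_at) had a mean log2 value under the filter at 0 h and passed it through later hours. The word called marks an adjusted p below 0.05 in limma, with Benjamini-Hochberg adjustment over all tested probe sets of its chip. The replicates of 1 number stood apart: over all hours, 24.4% of 27083 tested probe sets differed between replicate 3 and replicates 1 and 2. Each comparison was therefore also fitted with replicate 3 as a batch term and in replicates 1 and 2 alone. The cultures carried the defining transcripts of skeletal muscle on every A array: Myog, a myogenic transcription factor, ran from 6429 to 12722, Des (desmin) from 3799 to 6861 and Acta1 (skeletal actin) from 8196 to 17000. In such bulk RNA, fewer cells of a type and less RNA per cell cannot be told apart.

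The promoter windows shown are those of the linker genes Dmd and Utrn, which had probe sets called higher at 48 h in at least 1 of the fits, and that of Sgca, the sarcoglycan restricted to striated muscle, which was not called against 0 h in any of them. The sequences are RefSeq's for GRCm38.p6, 5′ to 3′ on the strand of the gene, from 250 bases before to 50 after a start of the gene. The outermost annotated start of the gene lies within the window shown for Sgca. It lies outside those shown for Dmd and Utrn, which are thus not windows of that start. Capitals mark E-boxes (CANNTG), the motif bound by myogenic factors such as MyoD and myogenin.
Dmd, chrX:82948620-82948919, plus strand: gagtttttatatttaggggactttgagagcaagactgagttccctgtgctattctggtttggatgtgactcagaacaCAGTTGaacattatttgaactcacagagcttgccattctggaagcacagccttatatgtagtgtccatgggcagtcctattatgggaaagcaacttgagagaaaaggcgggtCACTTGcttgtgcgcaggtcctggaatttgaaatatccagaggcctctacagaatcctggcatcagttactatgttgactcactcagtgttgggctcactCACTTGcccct
Utrn, chr10:12861686-12861985, minus strand: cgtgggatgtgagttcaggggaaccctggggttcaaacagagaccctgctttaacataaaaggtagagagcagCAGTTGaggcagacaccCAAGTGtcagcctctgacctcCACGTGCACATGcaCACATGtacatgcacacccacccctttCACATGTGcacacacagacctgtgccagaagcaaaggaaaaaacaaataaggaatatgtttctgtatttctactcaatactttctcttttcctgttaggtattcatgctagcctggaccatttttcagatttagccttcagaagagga
Sgca, chr11:94976278-94976577, minus strand: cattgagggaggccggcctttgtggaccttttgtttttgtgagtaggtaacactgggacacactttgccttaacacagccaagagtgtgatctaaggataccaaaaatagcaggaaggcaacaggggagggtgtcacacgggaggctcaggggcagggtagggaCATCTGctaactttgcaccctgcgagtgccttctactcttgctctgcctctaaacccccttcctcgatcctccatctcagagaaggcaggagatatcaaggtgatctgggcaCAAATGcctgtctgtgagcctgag
The Dmd window held 3 E-boxes and 1 CArG box, the motif of serum response factor. The Utrn window held 7 E-boxes, of which 2 overlap each other, and the Sgca window held 2. E-boxes were searched on both strands and were present in 72.3% of 32851 promoter windows of the same length, a CArG box in 1.63%, an MCAT motif (CATTCC) in 14.7% and a MEF2 box in 0.557%. The second window of Dmd and the window of Sgcb held none of the 4 motifs. The 2 windows of Dag1 overlap and share 1 E-box. Each of the 2 windows of Sspn held 1 MCAT motif, and 1 of them held 1 E-box as well. A match describes the letters of these windows and not binding.

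Of the 22 tested members, 0 were called at 4 h and 0 at 12 h against 0 h, 2 at 24 h and 3 at 48 h, all of them higher than at 0 h, and 2 were called by the F test over all hours. Among all tested probe sets, 1.1% were called higher at 24 h and 1.04% at 48 h, but 0% at 4 h and likewise 0% at 12 h. The F test called 1.43% of them. At an unadjusted p below 0.05 in limma, 0 members differed from 0 h at 4 h, 4 at 12 h (all higher), 10 at 24 h (9 higher and 1 lower) and 8 at 48 h (all higher). Among all tested probe sets, 5.18%, 6.45%, 13.7% and 14.3% differed at that p, and 2.64%, 3.42%, 6.73% and 7.56% of all tested probe sets were higher at that p. The calls after adjustment lay in 2 genes, Dtna at 24 and 48 h and Utrn at 48 h. With replicate 3 as a batch term, 7 members were called higher at 24 h and 6 at 48 h, where 4.16% and 3.86% of all tested probe sets were. In replicates 1 and 2 alone, 2 were called higher at 12 h, 8 at 24 h and 4 at 48 h, against 1.08%, 4.65% and 4.36% of all. The 3 probe sets under the filter at 0 h gave 0 of the calls over all arrays, 1 of the 7 and 2 of the 6 with the batch term, and 2 of the 8 and 2 of the 4 in replicates 1 and 2 alone. With weights for array quality, 9 members were called higher at 24 h, 6 at 48 h and 12 by the F test, beside 4.86%, 4.03% and 12.9% of all. Over all arrays 0 members were called lower than 0 h at 24 h and 0 at 48 h, where 0.661% and 0.594% of all were. The comparisons with 0 h share the 0 h arrays, so they are not independent of each other.

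**Figure D1:**
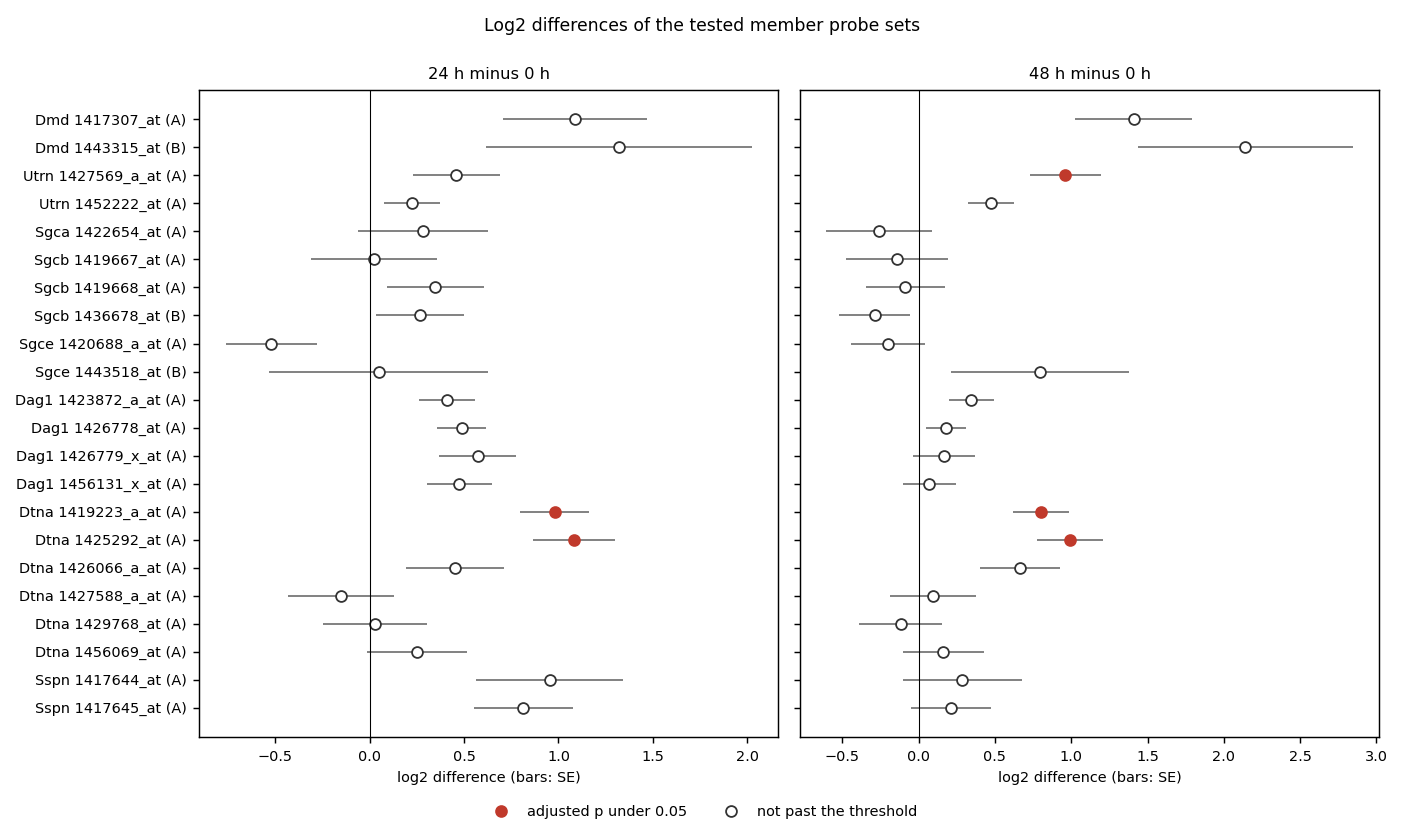
Log2 differences of the 22 tested member probe sets, 24 h minus 0 h at left and 48 h minus 0 h at right, with bars of 1 SE from the limma fit over 15 arrays of a chip. The filled points, 2 of Dtna at 24 h and 2 of Dtna and 1 of Utrn at 48 h, passed an adjusted p of 0.05, and the widest bars belong to Dmd and Sgce probe sets of the B chip.

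Dmd encodes dystrophin, the long actin-binding rod at the inner face of the membrane. In the order of replicates 1, 2 and 3, its probe set 1417307_at on A had intensities of 81.3, 10 and 77.2 at 0 h, 70.9, 87.8 and 104.4 at 4 h, 117, 125.5 and 42.2 at 12 h, 150.9, 152.3 and 105.6 at 24 h, and 229, 184.2 and 126.1 at 48 h. All 3 arrays at 24 h and all 3 at 48 h lay above all 3 at 0 h, and replicate 2 at 0 h was far below the other two of its hour. The mean was 179.8 ± 51.6 at 48 h and 56.2 ± 40.03 at 0 h (SD, n = 3 each), a log2 difference of 1.41 (SE 0.38) that was not called over all arrays (adjusted p = 0.0757, limma). It was called with replicate 3 as a batch term (adjusted p = 0.0189, limma) and in replicates 1 and 2 alone (log2 difference 1.84, adjusted p = 0.0066, limma). The probe set was under the filter at 0, 4 and 12 h and passed it through 24 and 48 h, and its 0 h array of replicate 2 read less than the pseudocount. Without that array the log2 difference at 48 h was 0.92, the lowest value among the fits that left out 1 array.

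The second tested Dmd probe set, 1443315_at on B, had 166.3, 70.9 and 12.9 at 0 h, 335.9, 169.2 and 20.9 at 4 h, 201.9, 496.8 and 150.5 at 12 h, 355.6, 527.7 and 66.3 at 24 h, and 594.9, 884.8 and 204.7 at 48 h. Replicate 3 was the lowest at every hour, and within each replicate the 48 h array was the highest of the 5. The mean was 561.5 ± 341 at 48 h and 83.4 ± 77.5 at 0 h (SD, n = 3 each). The log2 difference of 2.14 (SE 0.70) was not called over all arrays (adjusted p = 0.168, limma), and it was called with replicate 3 as a batch term (adjusted p = 0.0039, limma) and in replicates 1 and 2 alone (adjusted p = 0.013, limma). This probe set was under the filter at 0 and 4 h and passed it through the later hours, and its 0 h array of replicate 3 read less than the pseudocount of B. The other 2 Dmd probe sets were below the filter. Of these, 1448665_at had 114.8, 137.8 and 36.6 at 48 h against 20, 24.5 and 29 at 0 h, and in a fit without the filter its log2 difference of 1.12 had an adjusted p of 0.0697 in limma. The fourth, 1430320_at, stayed between 4.4 and 29.7 on all arrays.

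Utrn encodes utrophin. Its probe set 1427569_a_at had 211.7, 135.3 and 125.4 at 0 h, 276.4, 127.8 and 184.8 at 4 h, 216, 262.8 and 210.5 at 12 h, 232.7, 250.5 and 187.9 at 24 h, and 321.1, 303 and 359.1 at 48 h. The 48 h arrays were the highest of all 15. The mean was 327.7 ± 28.6 at 48 h and 157.5 ± 47.2 at 0 h (SD, n = 3 each), and the log2 difference of 0.96 (SE 0.23) was called over all arrays (adjusted p = 0.0472, limma) and with replicate 3 as a batch term (adjusted p = 0.0101, limma). It was higher at 48 h in 3 of 3 replicates. The call stood close to the threshold. It was kept only in the fits without replicate 1 at 4 h, replicate 2 at 4 h or replicate 3 at 24 h, and it was lost when any other single array was left out, with an adjusted p of up to 0.214, and in replicates 1 and 2 alone (adjusted p = 0.103, limma).

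The other tested Utrn probe set, 1452222_at, had 1003.9, 1086.4 and 790.8 at 0 h, 1326.2, 1320.6 and 950.2 at 4 h, 935.3, 1040.1 and 1005.7 at 12 h, 1083.5, 1120.9 and 1147.4 at 24 h, and 1351.3, 1369.4 and 1281.7 at 48 h. The 48 h arrays again lay above all 0 h arrays, and those of replicates 1 and 2 were nearly matched by the same replicates at 4 h. The log2 difference at 48 h was 0.47 (SE 0.15, adjusted p = 0.139, limma), and it was called with replicate 3 as a batch term (adjusted p = 0.0262, limma). The third, 1426892_at, was below the filter, between 2.3 and 38.6 on all arrays.

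Dtna encodes alpha-dystrobrevin, a relative of dystrophin that binds it and anchors syntrophins. Its probe set 1419223_a_at had 577.4, 489.3 and 514.9 at 0 h, 616.5, 517.2 and 633.6 at 4 h, 814, 852.9 and 839.1 at 12 h, 1145.1, 1240.1 and 852.4 at 24 h, and 1107.3, 1072.7 and 695.8 at 48 h. From 12 h on every array lay above every 0 h array, and replicate 3 was the lowest at 24 h and at 48 h. Mean intensities were 527.2 ± 45.3 at 0 h, 589.1 ± 62.9 at 4 h, 835.3 ± 19.7 at 12 h, 1079 ± 202 at 24 h and 958.6 ± 228 at 48 h (SD, n = 3 each). The log2 difference from 0 h was 0.64 at 12 h (SE 0.18, adjusted p = 0.450, limma), 0.98 at 24 h (adjusted p = 0.0122, limma) and 0.80 at 48 h (adjusted p = 0.0388, limma). At 24 h it also passed against 4 h, with a log2 difference of 0.83 (adjusted p = 0.0402, limma), where 0.687% of all tested probe sets were called higher.

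Dtna probe set 1425292_at had 470.3, 375.3 and 434.7 at 0 h, 467.4, 423.2 and 476.9 at 4 h, 665.6, 771.8 and 825.5 at 12 h, 1131.9, 956.5 and 746.5 at 24 h, and 1081.1, 1067.7 and 576.7 at 48 h. It followed the same course, with no overlap with 0 h from 12 h on. Its log2 difference from 0 h was 0.78 at 12 h (adjusted p = 0.425, limma), 1.08 at 24 h (SE 0.22, adjusted p = 0.0174, limma) and 0.99 at 48 h (adjusted p = 0.0316, limma), and 0.99 at 24 h against 4 h (adjusted p = 0.0392, limma). Both probe sets were higher at 24 h and 48 h in 3 of 3 replicates, and both were already called at 12 h in replicates 1 and 2 alone (adjusted p of 0.0317 and 0.0237, limma). The 24 h calls of both were lost without replicate 2 at 0 h or without replicate 1 or replicate 2 at 24 h, with adjusted p-values of 0.0760 to 0.108. At 48 h the call of 1425292_at was lost without any single 0 h array, without replicate 2 at 24 h and without replicate 1 or 2 at 48 h, with an adjusted p of up to 0.163. That of 1419223_a_at was lost without these arrays and also without replicate 1 at 4 h, replicate 1 or 2 at 12 h or replicate 1 at 24 h, with an adjusted p of up to 0.177. Leaving out replicate 3 at 48 h lowered the adjusted p at 48 h to 0.0016 for 1425292_at and to 0.0046 for 1419223_a_at.

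Among the other Dtna probe sets, 1426066_a_at was higher at 24 h and at 48 h in 3 of 3 replicates. It had 332.8, 268.3 and 197.3 at 48 h against 188.7, 149 and 128.9 at 0 h, without overlap, and its log2 difference of 0.66 was not called (adjusted p = 0.232, limma). Against 4 h its log2 difference at 48 h was 0.95, not called over all arrays (adjusted p = 0.109, limma) but called with replicate 3 as a batch term (adjusted p = 0.0205, limma) and in replicates 1 and 2 alone (adjusted p = 0.0188, limma), where 2.7% and 3.71% of all tested probe sets were called higher. Probe sets 1427588_a_at, 1429768_at and 1456069_at had log2 differences between -0.15 and 0.25 at 24 h and between -0.12 and 0.16 at 48 h, none of them called. Probe set 1453625_at on B was below the filter, between 2.7 and 133.5. The annotation does not say which transcripts of Dtna each probe set reports, so these differences within the gene are given as measured. For the 2 called probe sets, the arrays at 12 h lay above those at 4 h without overlap, with log2 differences of 0.49 for 1419223_a_at (SE 0.18) and 0.69 for 1425292_at (SE 0.22) that were not called (adjusted p of 0.971 and 0.967, limma). The steps 12 h against 4 h, 24 h against 12 h and 48 h against 24 h had 0 called members over all arrays, where 0%, 0% and 0.0702% of all tested probe sets were called, and the lowest adjusted p among the 22 members in any of these steps was 0.342. At an unadjusted p below 0.05 in limma, these steps had 4, 2 and 5 members, beside 6.23%, 6.1% and 10.3% of all tested probe sets.

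**Figure D2:**
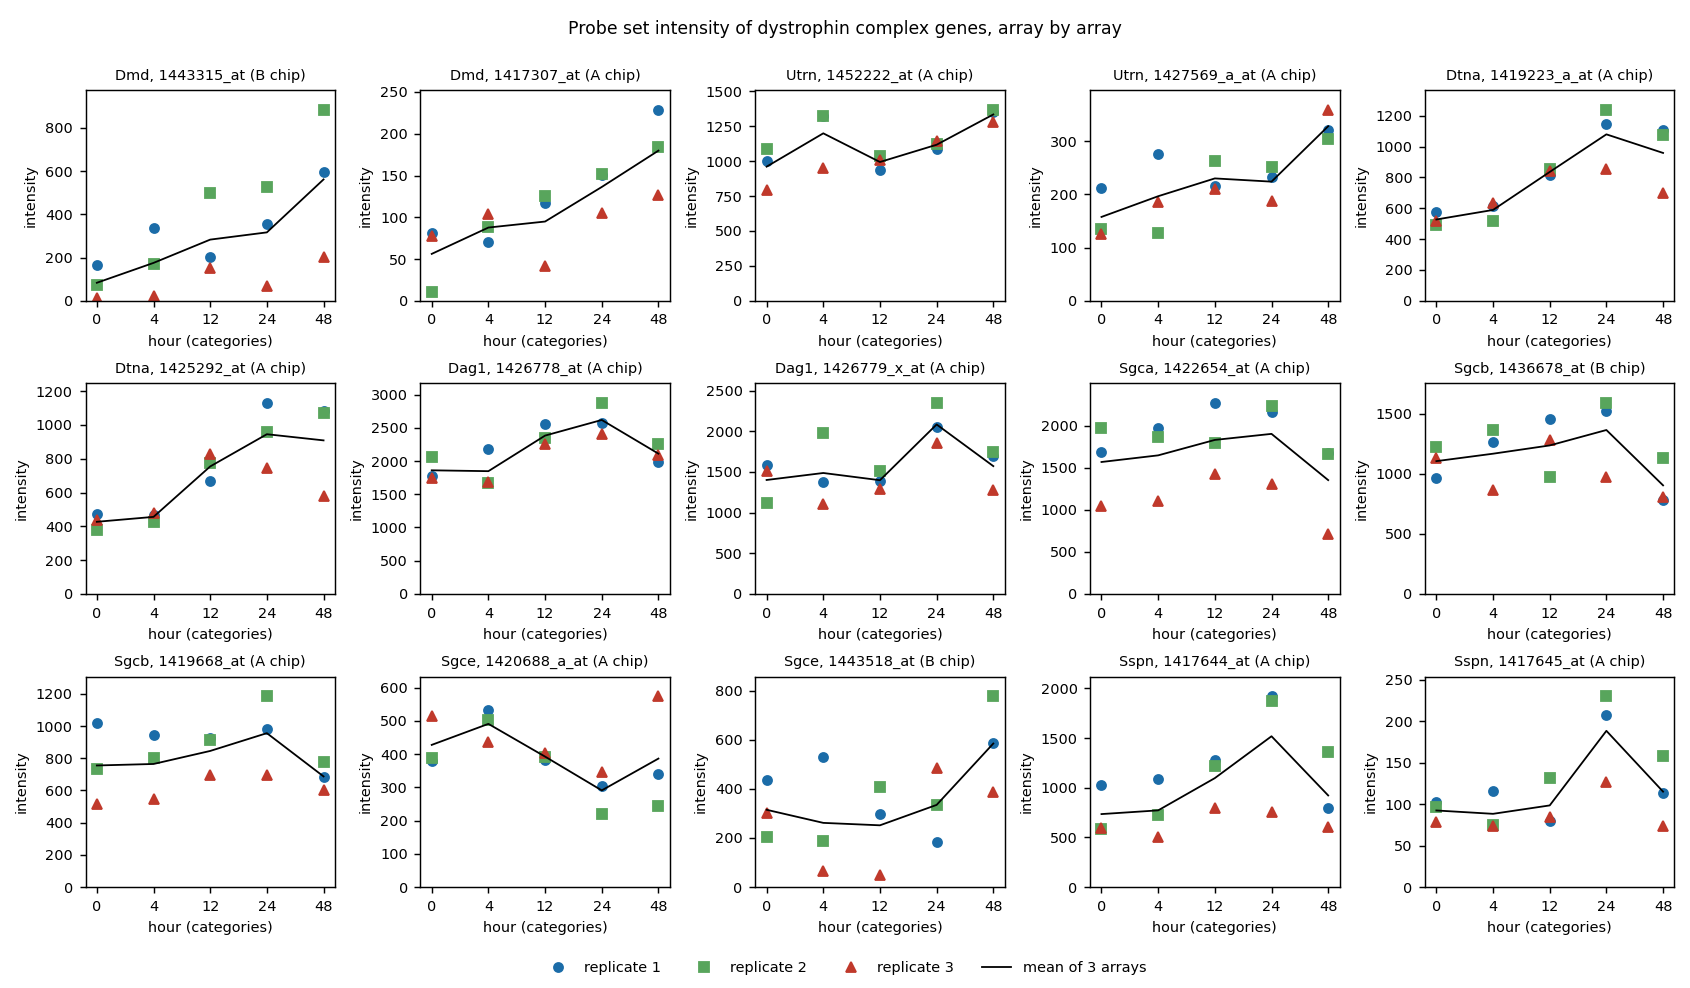
Intensity (linear scale, from 0) of the 2 brightest tested probe sets of each gene (1 for Sgca) at 0, 4, 12, 24 and 48 h, drawn as evenly spaced categories, with 1 point per array and a line through the mean of 3 arrays. Both Dtna probe sets lie above their 0 h arrays from 12 h on, Dag1 1426778_at is highest at 24 h, and replicate 3 (triangles) lies lowest at every hour for Sgca, for Sgcb 1419668_at and for Dmd 1443315_at.

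Dag1 encodes dystroglycan, whose single precursor is cut into the laminin-binding alpha chain and the membrane-spanning beta chain. Probe set 1426778_at had 1769.7, 2066.7 and 1746.6 at 0 h, 2179.9, 1675.1 and 1689.4 at 4 h, 2552.1, 2348.7 and 2250.1 at 12 h, 2567.8, 2880.1 and 2409.4 at 24 h, and 1987.1, 2258.2 and 2089.8 at 48 h. All arrays at 12 and 24 h lay above all arrays at 0 h, and those at 48 h overlapped them. The mean was 2619 ± 240 at 24 h and 1861 ± 179 at 0 h (SD, n = 3 each), a log2 difference of 0.49 (SE 0.13) that was not called over all arrays (adjusted p = 0.0676, limma) and was called with replicate 3 as a batch term (adjusted p = 0.0113, limma) and in replicates 1 and 2 alone (adjusted p = 0.0422, limma). Probe set 1423872_a_at had 1138.5, 1354.5 and 1120.2 at 24 h against 858.4, 918 and 913.3 at 0 h, again without overlap, and its log2 difference of 0.41 had an adjusted p of 0.167 over all arrays and of 0.0504 with the batch term (limma).

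The remaining Dag1 probe sets, 1426779_x_at and 1456131_x_at, carry the suffix that marks probes with possible matches to other transcripts. At 24 h they had log2 differences of 0.57 and 0.47, not called over all arrays (adjusted p of 0.165 and 0.173, limma), and both were called with the batch term (adjusted p of 0.0334 and 0.0215, limma). For all 4 Dag1 probe sets every 24 h array lay above every 0 h array. At 48 h the 4 log2 differences from 0 h were 0.07 to 0.35, and 0 of 4 were called in any of these fits. The 24 h values of Dag1 were not called lower at 48 h in any of them.

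The sarcoglycans are single-pass membrane proteins, of which alpha- and beta-sarcoglycan belong to the complex of striated muscle and epsilon-sarcoglycan, a relative of alpha, is expressed more widely. Sgca 1422654_at had 1687.1, 1970.1 and 1044.7 at 0 h, 1971.1, 1860.4 and 1106.8 at 4 h, 2272.6, 1790.5 and 1425.4 at 12 h, 2166.1, 2230.5 and 1307.7 at 24 h, and 1678.5, 1662.5 and 715 at 48 h. Replicate 3 was the lowest at every hour. No comparison with 0 h was called: the log2 difference was 0.28 at 24 h (SE 0.35, adjusted p = 0.747, limma) and -0.26 at 48 h (adjusted p = 0.797, limma). With replicate 3 as a batch term, 48 h was lower than 24 h (log2 difference -0.54, adjusted p = 0.0444, limma), against 1.31% of tested probe sets called lower there, and it was not called over all arrays (adjusted p = 0.686, limma) or in replicates 1 and 2 alone (adjusted p = 0.150, limma).

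Sgcb was measured by 3 probe sets. The brightest tested one on A, 1419668_at, had 1017.5, 733.2 and 513.9 at 0 h, 942.1, 803.9 and 546.5 at 4 h, 928.1, 910.9 and 696.3 at 12 h, 983.6, 1188 and 695.2 at 24 h, and 681.8, 776.6 and 602.2 at 48 h. The arrays of every later hour overlapped those of 0 h. The log2 differences from 0 h of the 3 Sgcb probe sets lay between 0.02 and 0.35 at 24 h and between -0.29 and -0.09 at 48 h, with 0 called over all arrays, with the batch term or in replicates 1 and 2 alone.

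Sgce was the only gene with a tested probe set whose 24 h arrays all lay below its 0 h arrays. Probe set 1420688_a_at had 378.5, 388.4 and 515.5 at 0 h, 532.5, 503 and 436.5 at 4 h, 383.2, 389.8 and 403.7 at 12 h, 304.3, 221 and 346.5 at 24 h, and 339.7, 243.8 and 575.3 at 48 h. It was lower at 24 h than at 0 h in 3 of 3 replicates. The log2 difference at 24 h was -0.52 against 0 h (SE 0.24, adjusted p = 0.302, limma), and -0.72 against 4 h (adjusted p = 0.175, limma), which was called with the batch term (adjusted p = 0.0328, limma) and in replicates 1 and 2 alone (adjusted p = 0.0072, limma), the calls in these fits covering 3.19% and 4.99% of all tested probe sets as lower. The second Sgce probe set, 1443518_at on B, ranged from 49 to 779.4 over its arrays and had its highest mean, 584.7, at 48 h. Matched by number it was higher at 48 h than at 0 h in 3 of 3 replicates, but the arrays of these hours overlapped. Its log2 difference of 0.79 at 48 h had an SE of 0.58 (adjusted p = 0.6003, limma).

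Sspn encodes sarcospan, a membrane protein with 4 spans that associates with the sarcoglycans. Probe set 1417644_at had 1025.4, 581.8 and 595.9 at 0 h, 1088.1, 726.1 and 500.8 at 4 h, 1282, 1216.5 and 790.8 at 12 h, 1925.9, 1869 and 758.7 at 24 h, and 800, 1364.4 and 601.6 at 48 h. Replicates 1 and 2 peaked at 24 h, and replicate 3 stayed between 500.8 and 790.8 throughout. The mean was 1518 ± 658 at 24 h and 734.4 ± 252 at 0 h (SD, n = 3 each), a log2 difference of 0.95 (SE 0.39) that was not called over all arrays (adjusted p = 0.230, limma) and was called with the batch term (adjusted p = 0.0111, limma) and in replicates 1 and 2 alone (log2 difference 1.26, adjusted p = 0.0078, limma). The dimmer probe set, 1417645_at, had 207, 230.5 and 127.1 at 24 h against 102.3, 96.4 and 78 at 0 h. These arrays did not overlap, and the log2 difference of 0.81 was likewise not called over all arrays (adjusted p = 0.122, limma) and called with the batch term (adjusted p = 0.0166, limma) and in replicates 1 and 2 alone (adjusted p = 0.0293, limma). This probe set was under the filter at 0, 4 and 12 h and passed it through 24 and 48 h. At 48 h the log2 differences from 0 h were 0.29 and 0.21, neither called.

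Counted without a model, all 3 arrays lay above all 3 at 0 h for 4 of the 22 tested members at 12 h (2 of Dtna and 2 of Dag1), for 8 at 24 h (4 of Dag1, 2 of Dtna, 1 of Dmd and 1 of Sspn) and for 8 at 48 h (3 of Dtna, 2 of Dmd, 2 of Utrn and 1 of Dag1). The same held for 6.75%, 8.93% and 10.4% of all tested probe sets. The Dmd and Sspn probe sets in these counts were under the filter at 0 h and were tested only through their later hours. Their part in the counts was thus favoured by the filter. All 3 arrays lay below those at 0 h for 1 member at 24 h, that of Sgce, against 9.84% of all tested probe sets, and for 0 at 48 h, against 8.68%. For any single probe set, exact permutation of 3 and 3 arrays gives a two-sided p of 0.1 at the lowest. With 1 probe set per gene, the brightest tested one on A or, where A had none, on B, the median log2 difference of the 8 genes was 0.11 at 4 h, 0.30 at 12 h, 0.42 at 24 h and 0.23 at 48 h, beside -0.03, -0.01, -0.05 and -0.03 over 12446 genes. At 24 h 7 of the 8 were above 0, all but Sgce. The Dmd probe set in these medians, 1417307_at, was under the filter at 0 h.

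Replicate 3 had lower intensities than replicates 1 and 2 for a large part of the complex. In a fit with terms for hour and for replicate 3, 8 of 22 members were lower in replicate 3 and 0 were higher, where 12.4% of all tested probe sets were lower and 12% higher. Without replicate 3 at 48 h the count was 5. The members called were Dmd 1443315_at (log2 difference -1.56), Sgca (-0.80), Sgcb 1419667_at (-0.74) and 1419668_at (-0.53), Sspn 1417644_at (-0.77) and 1417645_at (-0.41), Dag1 1456131_x_at (-0.27) and Dtna 1427588_a_at (-0.40). Sgca was lower in replicate 3 than in both other replicates at all 5 hours (adjusted p = 4.665e-06, limma). For Dtna 1419223_a_at and 1425292_at, which were called between hours, the differences were -0.19 and -0.20 and were not called (adjusted p of 0.171 and 0.253, limma).

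**Figure D3:**
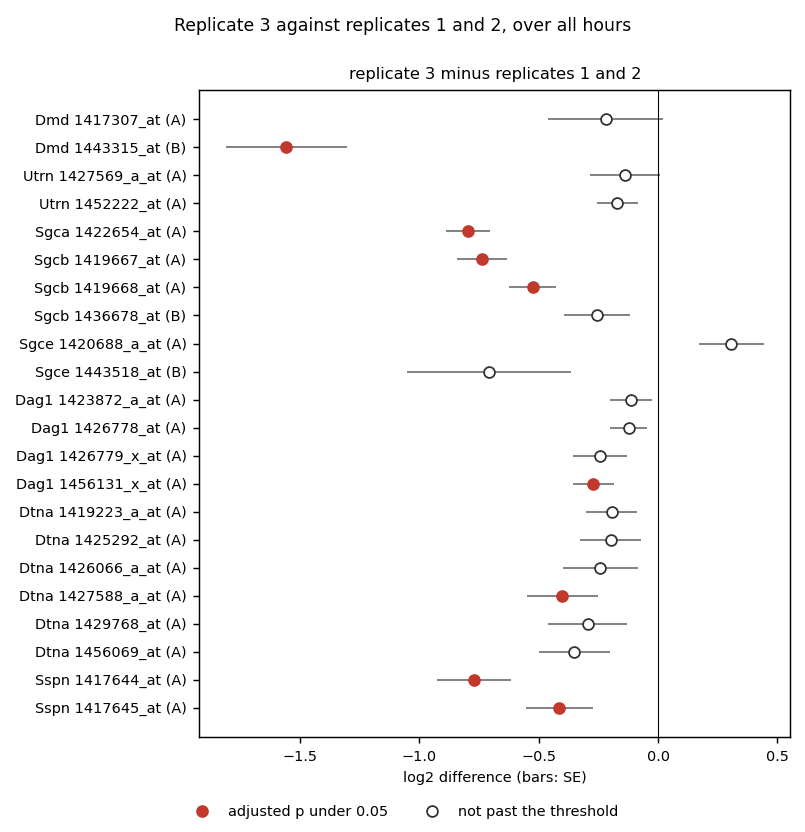
Log2 difference of the 22 tested member probe sets, replicate 3 minus replicates 1 and 2 over all hours, with bars of 1 SE from a limma fit with terms for hour and replicate 3. The 8 filled points passed an adjusted p of 0.05 and all lie below 0, from -1.56 for Dmd 1443315_at to -0.27 for Dag1 1456131_x_at.

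Marker levels moved with the same split. The summed intensity of 5 measured markers of dividing cells was 7833 to 10260 in replicate 3 and 2264 to 5317 in replicates 1 and 2, and 5 of 5 were called higher in replicate 3. The sum over 8 skeletal muscle markers was lower in replicate 3 than in both other replicates at every hour, 46210 to 67280 against 57258 to 76190, and 5 of 8 were called lower. Of all 12446 tested genes, 1815 were called higher and 1880 lower in replicate 3. The sum of 7 fibroblast markers changed its order with the hour: it was 3261 to 3288 in replicate 3 and 3778 to 4410 in replicates 1 and 2 at 0 and 4 h, but 4384 to 4403 in replicate 3 and 1974 to 2623 in replicates 1 and 2 at 24 and 48 h. That of 3 adipocyte markers was 428.2 to 738.3 in replicate 3 and 148.9 to 312.4 in replicates 1 and 2, and that of 6 smooth muscle and pericyte markers was 8671 to 14130 in replicate 3 and 9593 to 19967 in replicates 1 and 2. That of 4 neuron markers was 257.9 to 377.6 in replicate 3 and 330.7 to 1449 in replicates 1 and 2. Markers of endothelial cells, Schwann cells and macrophages summed to at most 579.9 on any array. Between hours, the dividing cell sum in replicates 1 and 2 was 2264 to 2268 at 24 h and 4707 to 5317 at 0 h. With the batch term 5 of 5 were called lower at 24 h, a count given without a share of all tested genes. Over all arrays 0 of 5 were called at 24 h, and 0 had an unadjusted p below 0.05 in limma. At 48 h the dividing cell sum was again 4519 to 4905 in replicates 1 and 2. There 0 of 5 were called against 0 h over all arrays, with the batch term or in replicates 1 and 2 alone. In the same 2 replicates the fibroblast sum was 1974 to 2114 at 24 h and 3813 to 3870 at 0 h, and the neuron sum was 330.7 to 343.3 at 24 h and 1167 to 1317 at 0 h. At 48 h the fibroblast sum was 2350 to 2623 and the neuron sum 397.3 to 455.1. The filter was passed by 2 of 7 listed fibroblast, 3 of 4 neuron, 1 of 4 adipocyte and 3 of 6 smooth muscle and pericyte markers. Over all arrays, 1 of the 2 fibroblast markers was above 0 at 24 h and at 48 h, with median log2 differences of -0.08 and 0.20. The neuron medians were -0.17 and -0.02, with 0 of 3 above 0 at 24 h and 1 at 48 h. These sums thus do not show that the markers of a type moved together. No listed marker of any cell type was at 0, so that does not set the types apart. The part of these levels in the differences of the complex was not tested.

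Other genes of the complex and its surroundings were taken from lists, with 1 probe set per gene. Of 10 listed other subunits (the remaining sarcoglycans, the syntrophins, Dtnb and Drp2), 4 passed the filter, and 0 were called in limma against 0 h at any hour, with 0 at an unadjusted p below 0.05 as well. Sntb1, a syntrophin that binds dystrophin, had 600.5, 566.2 and 223.7 at 24 h against 452.9, 320.7 and 129.6 at 0 h. These arrays overlapped, and the log2 difference was 0.61 (SE 0.52, adjusted p = 0.618, limma), and 0.11 at 48 h. At 24 h Drp2 was at 0.13, Dtnb at -0.36 and Sntb2 at -0.42. The median of the 4 was -0.12 at 24 h and -0.24 at 48 h. Of 18 genes that build the laminin-binding sugar chain of alpha-dystroglycan, 14 were tested and 0 called over all arrays in limma (3 at 24 h and 1 at 48 h had an unadjusted p below 0.05), with a median log2 difference of -0.12 at 24 h and -0.16 at 48 h. Gmppb, which makes GDP-mannose, had 181.1, 195 and 202.2 at 48 h against 301.3, 323 and 284.5 at 0 h, without overlap. Its log2 difference of -0.58 (adjusted p = 0.0656, limma) was called with replicate 3 as a batch term (adjusted p = 0.0237, limma) and in replicates 1 and 2 alone (adjusted p = 0.0370, limma). Dpm1, a subunit of the enzyme that makes dolichol phosphate mannose, was called higher at 24 h with the batch term (log2 difference 0.38, adjusted p = 0.0436, limma).

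Of 12 listed matrix ligands and partners, 8 were tested and 0 called over all arrays in limma (0 also at an unadjusted p below 0.05), and at 48 h all 8 log2 differences were above 0, with a median of 0.37. Lama2, the laminin chain of the muscle basement membrane, had 355.6, 638.3 and 200.2 at 48 h against 276.1, 270.6 and 153 at 0 h. These arrays overlapped, and 48 h was higher in 3 of 3 replicates only when matched by number (log2 difference 0.61, adjusted p = 0.506 over all arrays and 0.0630 with the batch term, limma). With the batch term, Bgn (biglycan) and Lamb1 (a laminin beta chain) were called higher at 48 h (adjusted p of 0.0269 and 0.0488, limma).

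Of 14 sarcolemma partners 13 were tested, and 2 were called higher at 24 h and at 48 h, where the medians of the list were 0.23 and 0.27. Of all 12446 tested genes, 197 were called higher at 24 h and 161 at 48 h. The 2 partners were Capn3, a muscle calpain protease, and Cav3, the muscle caveolin. Capn3 had 1391, 1333 and 674.8 at 48 h against 145.3, 141.6 and 284.6 at 0 h, a log2 difference of 2.40 (adjusted p = 0.0029, limma). Cav3 had 3076, 2610 and 1433 at 48 h against 498.2, 605.3 and 812.1 at 0 h, a log2 difference of 1.80 (adjusted p = 0.0165, limma). In both genes the rise was smallest in replicate 3. At either hour the count of 2 became 1 without replicate 1 or 2 of that hour and without replicate 1 or 2 at 0 h. It became 4 at 24 h without replicate 3 of that hour. With the batch term Dysf (dysferlin, a membrane repair protein) and Itga7 (a laminin-binding integrin chain) were also called higher at 24 h (adjusted p of 0.0433 and 0.0136, limma).

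**Figure D4:**
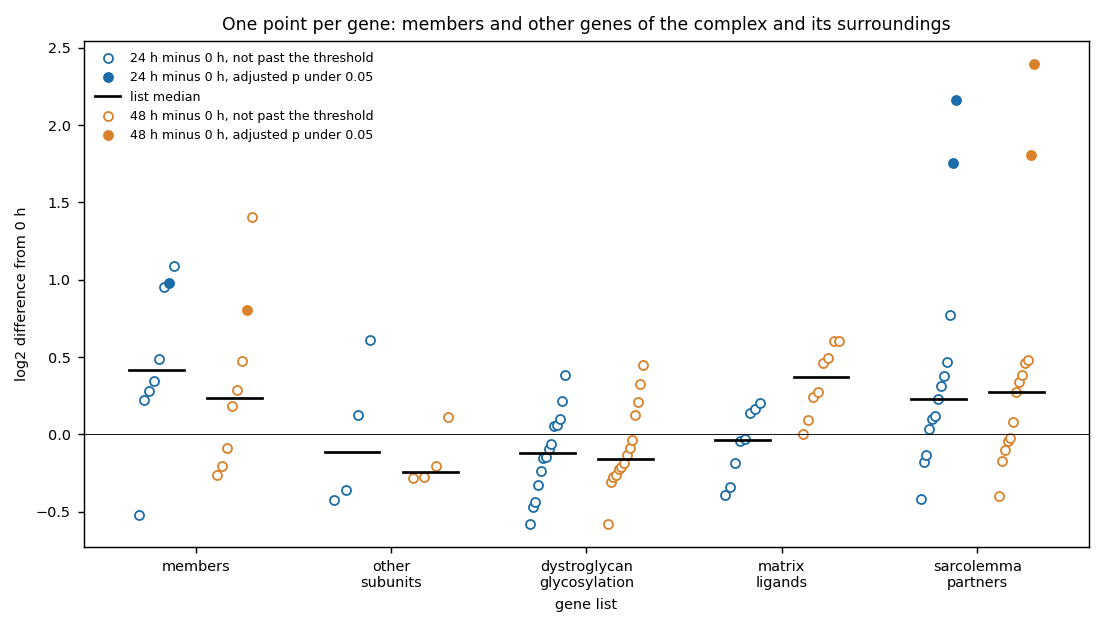
Log2 difference from 0 h at 24 h and at 48 h, 1 point per tested gene (its brightest tested probe set on A, or on B where A had none), for the 8 genes of the complex and 4 lists around it, with list medians as bars. Filled points passed an adjusted p of 0.05: Dtna among the members, and Capn3 and Cav3 among the sarcolemma partners.

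Over the 15 A arrays, the brightest probe sets of the members correlated with each other to different degrees on the log2 scale. These coefficients are descriptions, since the arrays share hours and replicates. Pearson's r was 0.85 between Sgcb and Sspn, 0.81 between Sgca and Sgcb and 0.69 between Sgca and Sspn, the 3 genes with the clearest replicate 3 difference on A. It was 0.74 between Dag1 and Dtna and 0.71 between Dmd and Dtna. Sgce ran against the others, with r of -0.77 with Dtna and -0.68 with Sspn. Utrn had no r above 0.32 with any other member.

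Among all single-gene A probe sets tested, those with the highest r to each member over the 15 arrays were as follows. For Dtna they were Ncam1, a cell adhesion molecule of muscle and nerve (0.98), and Wnk1 (0.97). For Sgca they were Ptgis (0.97) and Pdlim4 (0.96), and for Sspn Fech (0.96) and Zfp322a (0.96). For Sgcb they were Myorg (0.94) and Hivep2 (0.94), and for Sgce Eif4b (0.92) and Wdfy2 (0.90). For Dag1 they were Pacs2 (0.91) and Rmdn1 (0.89), for Dmd Dclk1 (0.89) and Ndufb5 (0.87), and for Utrn Nudt4 (0.88) and Rc3h2 (0.88).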

How the data were processed

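Total RNA of the cultures was hybridised by the manufacturer's standard protocol, per the labels. The authors deposited intensities of probe sets on a linear scale, with replicates kept apart, and from the values themselves the authors had scaled each array to a 2%-trimmed mean of 500.1 to 500.2, so no further scaling was applied. Not given in the sources used here: summary software, detection calls, genome build. Probe sets were named through GEO's platform annotation and RefSeq's GRCm38.p6 table. Log2(intensity + pseudocount), with the 20th percentile of the chip as pseudocount, was fitted per chip in limma 3.58.1 (R 4.3.3; lmFit, contrasts.fit, eBayes with intensity trend) over 15 arrays with hour as the factor, and all tests were two-sided. The fits were tested on simulated data. The filter lay at an intensity of 96.6 on A and 153.4 on B.

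The members, the gene lists and the alternatives were chosen with earlier results of these data known. All member probe sets are named. From each list the text names genes out of the up to 4 with the smallest adjusted p at 48 h and up to 2 against the majority, and beside these any gene called in the fits with the batch term (Dysf, Itga7 and Bgn, chosen after their values were seen). For each member it names the 2 genes with the highest r. The alternatives were other normalizations, pseudocounts, filters, arrays and weights, a replicate block, replicate 3 as a batch term, replicates 1 and 2 alone, a 2-fold threshold, other probe sets, no trend, and leaving out each array.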

Additional observations from a re-analysis of the deposited data

How the results depend on the processing

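Quantile normalization and median centring turned no direction of a member, and all probe sets together shifted by at most 0.03 (log2) under either. The calls of Dtna at 24 and 48 h held under both, under each pseudocount and with no filter, except that 1419223_a_at at 48 h had an adjusted p of 0.0508 with median centring (limma). At 12 h, 2 members were called higher in replicates 1 and 2 alone, where 1.08% of all tested probe sets were, and 1 was called with array quality weights. At 24 h the count of 2 became 7 with the batch term, 8 in replicates 1 and 2 alone, 9 with array quality weights and 1 at 2-fold, and 0 to 4 when 1 array was left out. At 48 h the count of 3 became 6 with the batch term and with array quality weights, 0 at 2-fold and in the fit of the hours compared alone, and 0 to 3 when 1 array was left out. Utrn 1427569_a_at at 48 h had an adjusted p of 0.0502 with a pseudocount of 1 and of 0.0747 with no filter (limma). The F test's count of 2 became 7 with the batch term, 5 in replicates 1 and 2 alone and 12 with array quality weights, and 0 to 2 when 1 array was left out. Among all tested probe sets the F test called 1.43% over all arrays and 12.9% with these weights. With array quality weights 4 members were called at 24 h against 12 h. With the batch term 1 was called lower at 48 h against 24 h, where 1.31% of all tested probe sets were. Counts that have no share of all tested probe sets, here or above, cannot be read as results about the members. The count of 8 for replicate 3 was 1 at 2-fold, and 5 to 8 when 1 array was left out.

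The replicate numbers did not meet the criterion for pairs of arrays: the correlation of deviations between arrays of 1 number had a lowest value of 0.044 for replicate 1, 0.12 for replicate 2 and 0.48 for replicate 3. Statements on 3 of 3 replicates match arrays by number only, and they add nothing where the arrays of the hours do not overlap. With the replicate block 7 members were called at 24 h, 6 at 48 h, 7 by the F test and 0 at 48 h against 24 h, and 1 matrix ligand was higher and 1 glycosylation gene lower at 48 h. No share of all tested probe sets is given for the replicate block, so its counts cannot be read as results about the members. With the batch term 1 glycosylation gene was higher at 24 h and 1 lower at 48 h, 2 matrix ligands were higher at 48 h and 4 sarcolemma partners higher at 24 h. In replicates 1 and 2 alone 1 glycosylation gene was lower at 24 h and 1 at 48 h, 1 matrix ligand was lower at 24 h and 1 higher at 48 h, and 4 sarcolemma partners were higher at 24 h. Quantile normalization gave 1 glycosylation gene lower at 48 h. Leaving out 1 array gave 1 to 4 sarcolemma partners at 24 h and 1 to 2 at 48 h. No share of all tested genes is given for the list counts in these alternative fits, so they cannot be read as results about the lists.

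Some differences that were not called turned sign in other fits, and those of Dtna and Sgce turned sign with the choice of probe set. In replicates 1 and 2 alone Sgcb 1419667_at was -0.15 and Sgce 1443518_at -0.23 at 24 h. With array quality weights Sgce 1443518_at was -0.0731 at 24 h and Dtna 1429768_at 0.0477 at 48 h. The brightest probe set of Sgce was at -0.52 at 24 h and -0.20 at 48 h. In its place 1443518_at gave 0.0463 at 24 h and 0.79 at 48 h. The brightest probe set of Dtna was called at both hours, with 0.98 at 24 h and 0.80 at 48 h. In its place 1427588_a_at gave -0.15 at 24 h and 1429768_at -0.12 at 48 h. When 1 array was left out, the ranges at 24 h were -0.35 to 0.26 for Sgcb 1419667_at, -0.23 to 0.36 for Sgce 1443518_at, -0.43 to 0.0204 for Dtna 1427588_a_at and -0.0347 to 0.0805 for Dtna 1429768_at. At 48 h they were -0.52 to 0.14 for Sgca, -0.51 to 0.10 for Sgcb 1419667_at, -0.33 to 0.15 for Sgcb 1419668_at, -0.51 to 0.0611 for Sgce 1420688_a_at, -0.0243 to 0.20 for Dag1 1456131_x_at, -0.0159 to 0.20 for Dtna 1427588_a_at, -0.28 to 0.0656 for Dtna 1429768_at, -0.0302 to 0.54 for Sspn 1417644_at and -0.0023 to 0.43 for Sspn 1417645_at. The causes were not tested. Without detection calls, background limits the 4 members below the filter and the 0 h levels of Dmd, where 1417307_at read 10 and 1443315_at 12.9 on 1 array each.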
